A study of Mus musculus with 12 samples.

Results

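The major histocompatibility complex (MHC) class I and class II genes described here are 9 genes chosen by name, 4 of class I (H2-K1, H2-D1, B2m and Tap1) and 5 of class II (H2-Aa, H2-Ab1, H2-Eb1, H2-DMa and Cd74). All 9 were found among the 47643 genes of the count data, 18571 of which had at least 1 count. Bulk 3′ RNA sequencing measured them in the brains of 5 old males of the p16-3MR strain (C57BL/6 background), whose ages were 113 weeks (mouse 1), 115 weeks (mouse 2) and 116 weeks (mice 3, 4 and 5). The p16 promoter drives their 3MR transgene, a fusion of a luciferase, a shortened viral thymidine kinase and a red fluorescent protein (RFP). After myelin removal, viable cells of every mouse were sorted by RFP into samples that the labels call RFPneg and RFPpos and the study RFP low and RFP high, with no gate on a lineage marker described, so that the 5 RFPneg and 5 RFPpos samples were paired by mouse and differed in fluorescence, not in genotype or age, and no young or wild-type bulk samples were available.

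Gene counts per sample ran from 177287 to 415834 in RFPneg (median 248471) and from 222560 to 289713 in RFPpos (median 242798). The level of a gene is its CPM, its counts over those of all genes after scaling by the trimmed mean of M values (TMM). Since 3′ libraries count 1 tag per transcript, CPM values of different genes do not depend on their length. Marker genes were compared between the labels, although microglia genes do not report RFP and so cannot check the sort itself. Summed counts of 20 microglia genes made up 1.42% ± 0.307 (SD, n = 5) of the RFPneg counts. In RFPpos they made up 2.89% ± 0.322 (SD, n = 5). All 20 genes were higher in RFPpos at an adjusted p-value under 0.05 (test described below), beside 4.98% of all genes tested. Cdkn2a, the gene that encodes p16, had 2, 0, 0, 2 and 4 counts in the RFPneg samples of mice 1 to 5 and 0 counts in every RFPpos sample, where a count of 0 allows up to 3 counts. These few counts lay on the side opposite to the labels, at a depth too low to check them, whereas the authors describe more p16 transcript in the RFPpos cells, in a figure not examined here. The populations are called by their labels throughout.

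MHC class I molecules sit on nearly all nucleated cells and present peptides from the cytosol to CD8 T cells. They consist of a heavy chain (H2-K1 or H2-D1), the light chain beta-2 microglobulin (B2m) and a peptide that the transporter of Tap1 and Tap2 brings into the endoplasmic reticulum. MHC class II molecules present peptides from endosomes to CD4 T cells, are made mostly by B cells, dendritic cells and monocyte-derived cells, and are low in resting microglia. Their alpha and beta chains (H2-Aa with H2-Ab1, and the beta chain H2-Eb1) travel with the invariant chain Cd74, and H2-DMa with H2-DMb1 exchanges the remnant of Cd74 for peptide.

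Class II chains and Cd74 were low in RFPpos cells, while class I genes differed less and H2-DMa was slightly higher. Of the 9 genes, 4 were called lower in RFPpos (H2-Aa, H2-Ab1, H2-Eb1 and Cd74), 1 was called higher (H2-DMa) and the 4 class I genes were not called, at an adjusted p-value under 0.05 (edgeR quasi-likelihood test with the mouse as a block, Benjamini-Hochberg adjustment over the 10254 genes with at least 20 counts). Among all 10254 genes, 13.5% were called, 8.52% lower and 4.98% higher, with a median log2 fold change (log2FC, RFPpos over RFPneg) of −0.11. The median log2FC was −2.92 over the 5 class II genes and 0.26 over the 4 class I genes. In bulk samples, fewer cells of a type and less RNA per cell cannot be told apart.

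**Figure D1:**
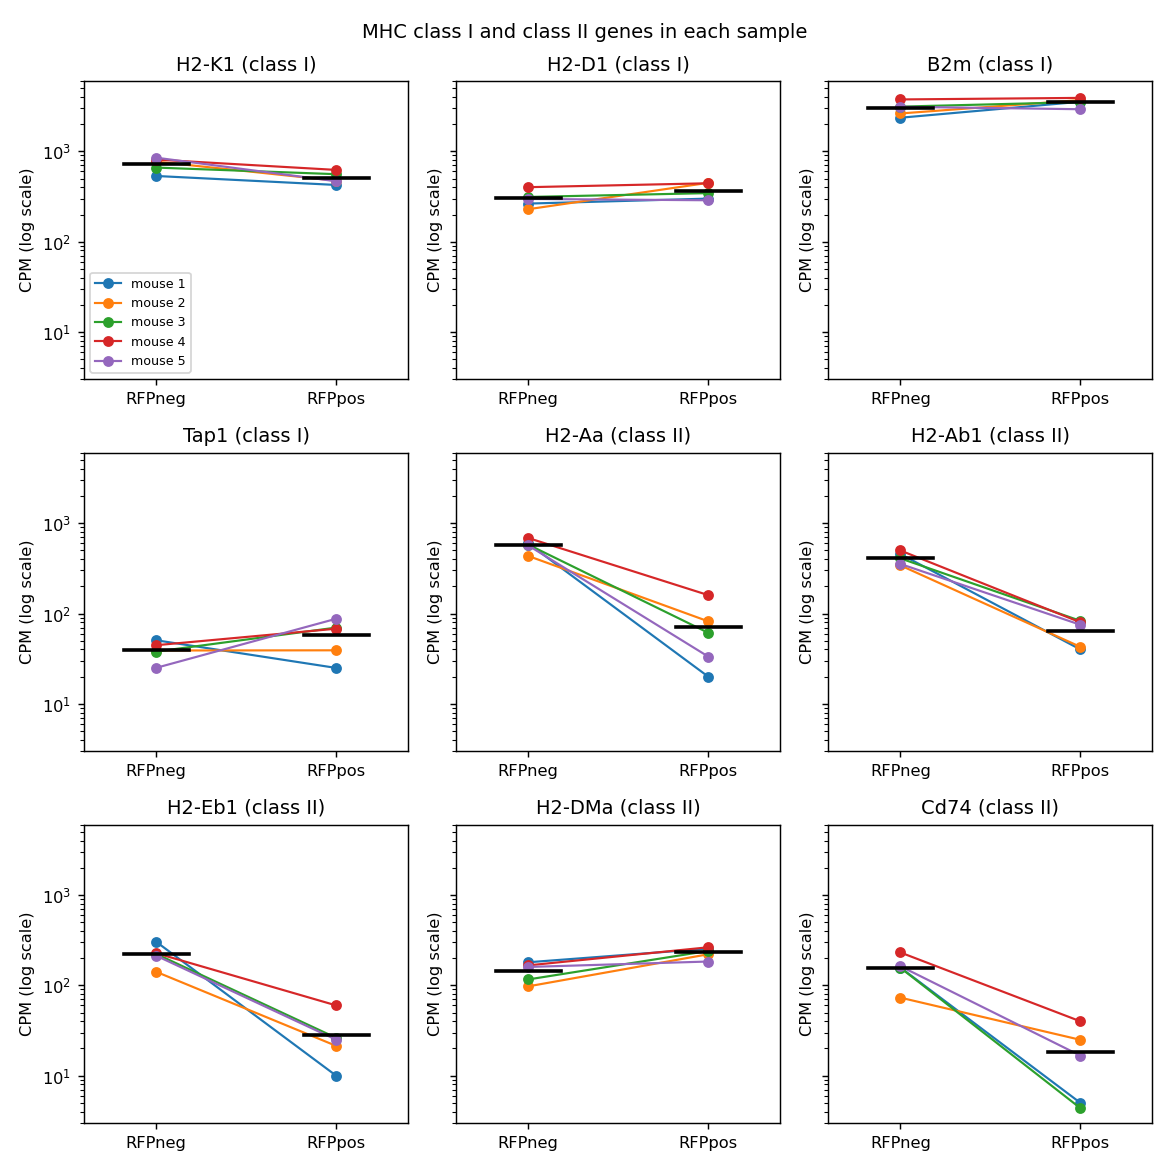
CPM of the 9 MHC genes (vertical axis, log scale, the same in all panels) in the RFPneg and RFPpos sample of each mouse, joined by a line per mouse, with the mean of 5 samples as a black bar. H2-Aa, H2-Ab1, H2-Eb1 and Cd74 are lower in RFPpos in 5 of 5 mice and H2-DMa is higher in 5 of 5.

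The chains of the class II molecule fell together. H2-Aa, the alpha chain (ENSMUSG00000036594, chromosome 17, 34282744 to 34287823, minus strand, GENCODE M21 on GRCm38), had 596, 433, 578, 685 and 566 CPM in the RFPneg samples of mice 1 to 5. In the RFPpos samples it had 19.99, 81.9, 61.1, 159.7 and 33.3 CPM. The highest RFPpos value, in mouse 4, was below the lowest RFPneg value, in mouse 2, and mouse 1 had the lowest RFPpos value. The mean was 572 ± 90.3 CPM (SD, n = 5) in RFPneg and 71.2 ± 55.0 CPM (SD, n = 5) in RFPpos, and the log2FC was −3.09 (standard error, SE, 0.26, adjusted p = 4.798e-15), an 8.54-fold lower level.

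H2-Ab1, the beta chain that pairs with H2-Aa (ENSMUSG00000073421, chromosome 17, 34257689 to 34269419, plus strand), had 455, 341, 408, 498 and 354 CPM in RFPneg. Its RFPpos values were 40.0, 42.7, 82.9, 79.9 and 75.0 CPM. The groups did not overlap, and the RFPpos samples of mice 1 and 2 were the lowest. The log2FC was −2.67 (SE 0.25, adjusted p = 1.25e-13), a 6.39-fold lower level. The beta chain H2-Eb1 (ENSMUSG00000060586, chromosome 17, 34305867 to 34316674, plus strand), which has no functional alpha chain partner in C57BL/6 mice, had 304, 141, 223, 227 and 213 CPM in RFPneg and 9.99, 21.4, 26.2, 59.9 and 24.996 CPM in RFPpos. These RFPpos values rest on 2, 6, 6, 15 and 6 counts. As for H2-Aa, the RFPpos sample of mouse 4 was the highest and that of mouse 1 the lowest, without overlap between the groups. The log2FC was −2.92 (SE 0.32, adjusted p = 4.794e-11). The other beta chain gene listed, H2-Eb2, had 0 counts in all samples.

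Promoter sequences are shown for H2-Aa and H2-Eb1, which fell together, beside those of B2m and H2-K1, which did not pass the test. They were taken from RefSeq (GRCm38.p6), where 7 of the 9 genes were matched (not H2-Ab1 and Cd74), and end at the base before the annotated start of the gene. Capitals mark matches on either strand to the Y box core ATTGG and the X2 box core TGACG, letters that were chosen after the sequences had been read, and longer motifs that were also tried are not shown. H2-Aa is on the minus strand (chr17:34287824-34288073), H2-Eb1 on the plus strand (chr17:34305617-34305866), B2m on the plus strand (chr2:122147437-122147685) and H2-K1 on the minus strand (chr17:34000348-34000597).
H2-Aa: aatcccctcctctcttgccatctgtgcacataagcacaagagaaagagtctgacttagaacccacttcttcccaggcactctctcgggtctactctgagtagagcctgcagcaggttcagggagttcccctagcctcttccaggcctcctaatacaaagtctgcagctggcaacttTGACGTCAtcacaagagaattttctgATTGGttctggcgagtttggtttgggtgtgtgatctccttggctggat
H2-Eb1: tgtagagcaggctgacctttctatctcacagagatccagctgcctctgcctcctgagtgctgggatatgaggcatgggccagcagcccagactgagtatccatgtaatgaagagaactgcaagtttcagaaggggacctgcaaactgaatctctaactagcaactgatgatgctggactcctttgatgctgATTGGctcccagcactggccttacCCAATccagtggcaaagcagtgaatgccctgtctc
B2m: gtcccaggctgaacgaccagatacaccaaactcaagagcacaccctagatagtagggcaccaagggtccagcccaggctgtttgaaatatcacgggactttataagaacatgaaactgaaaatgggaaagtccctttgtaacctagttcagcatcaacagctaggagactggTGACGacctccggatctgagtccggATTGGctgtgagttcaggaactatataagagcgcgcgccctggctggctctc
H2-K1: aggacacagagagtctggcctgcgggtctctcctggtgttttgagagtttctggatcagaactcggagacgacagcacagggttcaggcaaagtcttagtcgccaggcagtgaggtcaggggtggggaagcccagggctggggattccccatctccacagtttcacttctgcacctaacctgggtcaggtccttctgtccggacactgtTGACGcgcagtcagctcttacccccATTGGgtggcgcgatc

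The Y box core lay at 48 bases before the start in H2-Aa, 59 and 35 in H2-Eb1, 52 in B2m and 16 in H2-K1, and 33.8% of the 32817 promoter windows of 250 bases held it. Since the letters were chosen on these 4 windows, 4 of the 7 with a sequence, their matches are not read against that share. The X2 box core was found in H2-Aa, B2m and H2-K1, in H2-Aa as overlapping matches on both strands. It lay in 17.7% of all windows, a share not read against these matches for the same reason. Its exact letters were not found in the H2-Eb1 window, which does not show that this window lacks an X2 box with other letters. A match describes the letters and is not a measured binding site. H2-Eb1 is overlapped by an antisense gene whose exon reaches into its window.

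Cd74, the invariant chain, which guides class II molecules to the endosome (ENSMUSG00000024610, chromosome 18, 60803848 to 60812652, plus strand), had 157, 73.0, 156, 231 and 163 CPM in the RFPneg samples. In the RFPpos samples it had 5.00, 24.9, 4.37, 39.9 and 16.7 CPM, which rest on 1, 7, 1, 10 and 4 counts. The groups did not overlap. The log2FC was −3.04 (SE 0.38, adjusted p = 3.567e-09), an 8.24-fold lower level. The class II chain genes lie on chromosome 17. Summed over H2-Aa, H2-Ab1, H2-Eb1 and Cd74, the level was 1512, 988, 1365, 1641 and 1295 CPM in RFPneg and 74.9, 171, 175, 339 and 150.0 CPM in RFPpos. The RFPpos samples thus kept a low class II signal of 224 counts in all, against 1867 counts in RFPneg, and it was lowest in mouse 1 and highest in mouse 4.

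H2-DMa, a subunit of the endosomal peptide exchange factor (ENSMUSG00000037649, chromosome 17, 34119541 to 34139101, plus strand), went the other way. It had 179.9, 97.4, 116, 166 and 159.6 CPM in RFPneg and 255, 221, 240.1, 264 and 183 CPM in RFPpos. Every RFPpos value was above every RFPneg value, but by little, with 179.9 CPM as the highest RFPneg value and 183 CPM as the lowest RFPpos value. The log2FC was 0.71 (SE 0.23, 95% interval 0.24 to 1.18, adjusted p = 0.02951), and it was higher in RFPpos in 5 of 5 mice. The call was lost without mouse 2, 3 or 4 (adjusted p = 0.152, 0.162 and 0.0578), with DESeq2 (0.173), library sizes alone (0.0670), no filter (0.0573) and thinned counts (0.0522), while the log2FC stayed between 0.61 and 0.85. Its partner H2-DMb1 had 91.4 ± 34.2 CPM (SD, n = 5) in RFPneg and 113 ± 17.8 CPM (SD, n = 5) in RFPpos, was not called (log2FC 0.35, SE 0.29, adjusted p = 0.5448) and was higher in 3 of 5 mice. The ratio of H2-DMa to H2-Aa counts, a comparison chosen after the values were seen, had a median of 0.243 in RFPneg and 3.93 in RFPpos and was higher in RFPpos in 5 of 5 mice. Of the subunits of the exchange inhibitor, H2-Ob was not called (adjusted p = 0.9439) and H2-Oa, with 6 counts in RFPneg and 13 in RFPpos, was not tested. H2-DMa shares 591 bases with CR974462.3 on the same strand, and others with genes on the opposite strand. Among the latter, Brd2 had a log2FC of −0.05 (adjusted p = 0.9439). The strand used in counting is not given in the sources used here.

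The class I genes overlapped between the populations. B2m, the light chain shared by all class I molecules (ENSMUSG00000060802, chromosome 2, 122147686 to 122153083, plus strand), had the highest level of the 9 genes, with 2355, 2624, 3126, 3753 and 3113 CPM in RFPneg. In RFPpos it had 3537, 3694, 3505, 3905 and 2925 CPM. It was higher in RFPpos in 4 of 5 mice and lower in mouse 5, and the difference did not pass the test (log2FC 0.24, 95% interval −0.11 to 0.59, adjusted p = 0.4606). B2m lies within Patl2 on the opposite strand, which had 0 counts.

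The heavy chain H2-K1 (ENSMUSG00000061232, chromosome 17, 33996017 to 34000347, minus strand) had 534, 769, 661, 811 and 851 CPM in RFPneg and 425, 473, 559, 623 and 467 CPM in RFPpos. It was lower in RFPpos in 5 of 5 mice, but the RFPpos sample of mouse 4 was above the RFPneg sample of mouse 1. Its log2FC of −0.51 (95% interval −0.89 to −0.12) had an adjusted p of 0.0725 from edgeR and was not called. The gene was called lower with median-of-ratios factors (adjusted p = 0.0379), library sizes alone (0.0474), a stricter count filter (0.0231) or limma voom (0.0142), and not without any mouse (0.0764 to 0.248). H2-D1, the other classical heavy chain (ENSMUSG00000073411, chromosome 17, 35262730 to 35267499, plus strand), had 264, 229, 313, 401 and 297 CPM in RFPneg and 299.8, 448, 345, 443 and 287 CPM in RFPpos. Its values overlapped, with 4 of 5 mice higher in RFPpos (log2FC 0.27, 95% interval −0.15 to 0.69, adjusted p = 0.4915). H2-K1, H2-D1 and the H2-Q and H2-T genes are near-identical in parts, so that their counts are uncertain where reads were divided among them. The ratio of B2m to H2-K1 counts, also chosen after the values were seen, had a median of 4.41 in RFPneg and 6.27 in RFPpos and was higher in RFPpos in 5 of 5 mice, whereas that of B2m to H2-D1 was 9.99 and 10.2.

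Tap1, a subunit of the peptide transporter (ENSMUSG00000037321, chromosome 17, 34187553 to 34197225, plus strand), had the lowest RFPneg level of the 9 genes and 122 counts in all samples. Its values were 50.6, 39.0, 37.9, 44.6 and 25.03 CPM in RFPneg and 24.98, 39.1, 69.8, 67.9 and 87.5 CPM in RFPpos. The RFPpos samples spread more widely than the RFPneg samples, with mouse 1 lower, mouse 2 level and mice 3, 4 and 5 higher in RFPpos. The difference did not pass the test (log2FC 0.55, 95% interval −0.28 to 1.39, adjusted p = 0.4798), and the interval runs past 1. Tap1 shares 212 bases with Psmb9 on the opposite strand, which had 113 counts in all samples. Within RFPneg the mean levels ran in the order B2m, H2-K1, H2-Aa, H2-Ab1, H2-D1, H2-Eb1, Cd74, H2-DMa and Tap1. Neighbours whose ranges of mean ± SD overlapped were H2-K1 with H2-Aa, H2-Ab1 with H2-D1, H2-D1 with H2-Eb1, H2-Eb1 with Cd74 and Cd74 with H2-DMa. In RFPpos the order was B2m, H2-K1, H2-D1, H2-DMa, H2-Aa, H2-Ab1, Tap1, H2-Eb1 and Cd74, and those ranges overlapped for H2-K1 with H2-D1 and for each pair of neighbours from H2-Aa to Cd74.

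**Figure D2:**
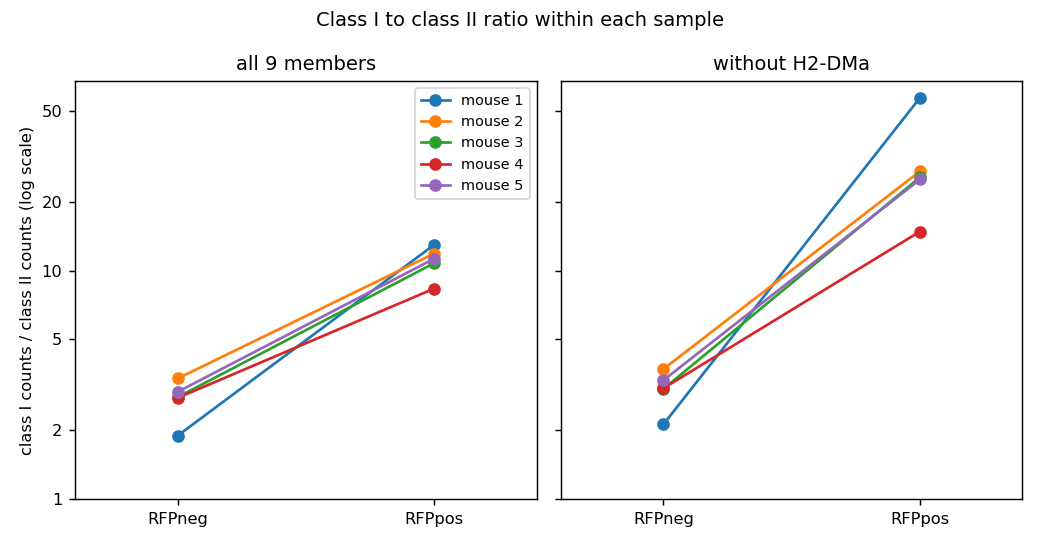
Summed counts of the 4 class I genes over those of the class II genes in each sample (log scale), with all 5 class II genes (left) or without H2-DMa (right), and a line per mouse. The ratio is higher in RFPpos in 5 of 5 mice in both panels.

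A ratio of counts within a sample does not depend on the scaling. Class I counts were 1.89, 3.37, 2.79, 2.77 and 2.95 times the class II counts in the RFPneg samples. In the RFPpos samples they were 13, 11.9, 10.8, 8.36 and 11.3 times the class II counts. The groups did not overlap, and the RFPneg and RFPpos samples of mouse 1 had the lowest and the highest ratio. The difference within mice was 2.02 ± 0.45 on the log2 scale (SD, n = 5), a 4.04-fold higher ratio, in 5 of 5 mice. Without the most abundant gene of each class, B2m and H2-Aa, it was 1.24 ± 0.26, and without H2-DMa, an alternative chosen after seeing the data, 3.18 ± 0.93 (SD, n = 5). The plot of the ratio in each sample shows that H2-DMa made up much of the class II sum in RFPpos, where ratios without it ran from 14.8 to 57.2. The class I sum itself was 4060 ± 680 CPM (SD, n = 5) in RFPneg and 4445 ± 470 CPM (SD, n = 5) in RFPpos.

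Because RFPpos samples held more microglia counts, the genes were also fitted relative to the 20 microglia genes, a step that shifted the median over all genes by −1.099. On that scale 51.2% of genes were called, and 5231 of the 10254 genes (51.0%) were lower in RFPpos and 15 (0.146%) higher. Of the 9 MHC genes, 7 were lower, with H2-DMa and Tap1 not called. H2-Aa had −4.25, Cd74 −4.16, H2-Eb1 −4.05 and H2-Ab1 −3.80. Among class I genes H2-K1 had −1.62 (adjusted p = 3.216e-09), B2m −0.88 (7.04e-05), H2-D1 −0.85 (0.001419) and Tap1 −0.56 (0.2708). The values of B2m and H2-D1 changed sign between the scales, as the shift of all genes makes any gene slightly above 0 do. H2-DMa also changed sign, to −0.40 (95% interval −0.90 to 0.09, adjusted p = 0.1637), and was lower per microglia count in 5 of 5 mice. The class II chains and Cd74 were lower on both scales.

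**Figure D3:**
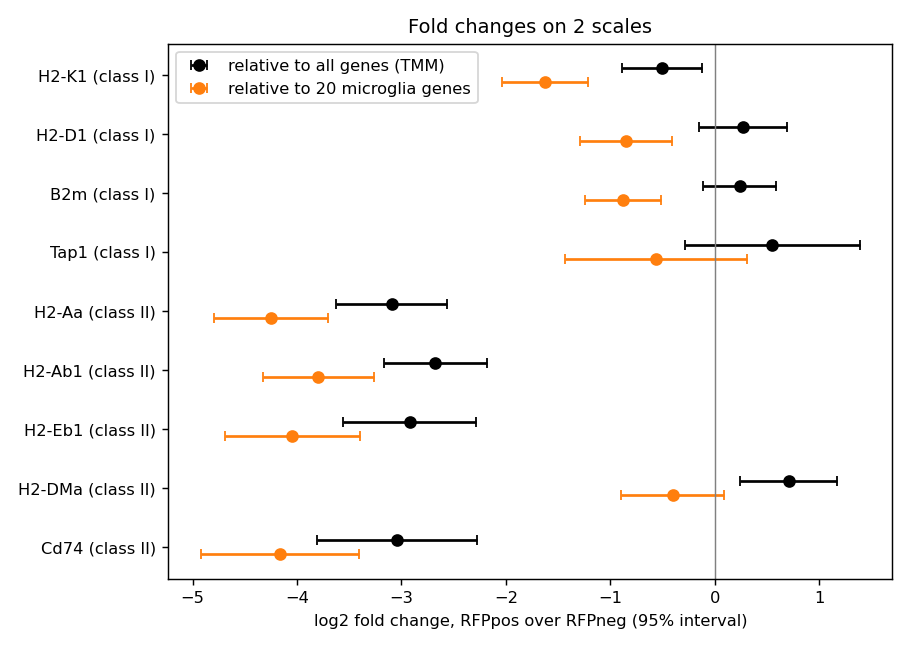
Log2 fold change of RFPpos over RFPneg for each gene (points) with 95% intervals (bars), relative to all genes (black) and to 20 microglia genes (orange). H2-Aa, H2-Ab1, H2-Eb1 and Cd74 lie below −2 on both scales, while H2-D1, B2m, Tap1 and H2-DMa change sign.

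Other genes of antigen presentation were described by lists of known function. Of 17 non-classical heavy chain and related genes, 8 were tested, 2 were lower in RFPpos and none was higher, with a median log2FC of −1.04. Among all genes 8.52% were lower and 4.98% higher. H2-Q7 fell from 72.6 ± 28.5 to 10.0 ± 3.48 CPM (SD, n = 5), with a log2FC of −2.77 (SE 0.50, adjusted p = 1.961e-05), close to the size of the class II chains. Its RFPpos values rest on 2, 2, 2, 4 and 2 counts. Under the stricter count filter neither H2-Q7 nor H2-Q4 was tested. H2-Q4 had a log2FC of −1.39 (adjusted p = 0.02871), a call lost without mouse 2, 3 or 4 (adjusted p = 0.164, 0.175 and 0.101), with DESeq2 (0.116) and with thinned counts (0.101). Of 9 genes for the light chain and peptide loading, 2 were higher (median 0.45), beside 4.98% of all genes. These were the chaperones Canx (log2FC 1.05, adjusted p = 9.687e-05) and Calr (0.85, adjusted p = 0.001573), which fold many proteins besides class I chains. Tap2 (−0.18, adjusted p = 0.8934) and Tapbp (0.16, adjusted p = 0.801) were not called, nor was any of 5 immunoproteasome and activator genes, with Psmb8 at 0.27 (adjusted p = 0.7009) and Psmb9 at −0.50 (adjusted p = 0.5703). Relative to the microglia genes, where 0.146% of all genes were higher and 51.0% lower, none of these 3 lists held a higher gene. Lower on that scale were 5 of 8 tested non-classical genes (median −2.15), 4 of 9 light chain and loading genes (median −0.67) and 4 of 5 immunoproteasome and activator genes (median −0.96). Among them were Tap2 (adjusted p = 0.03175), Tapbp (0.003821), Psmb8 (0.03517) and Psmb9 (0.002543), while Canx and Calr were not called.

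**Figure D4:**
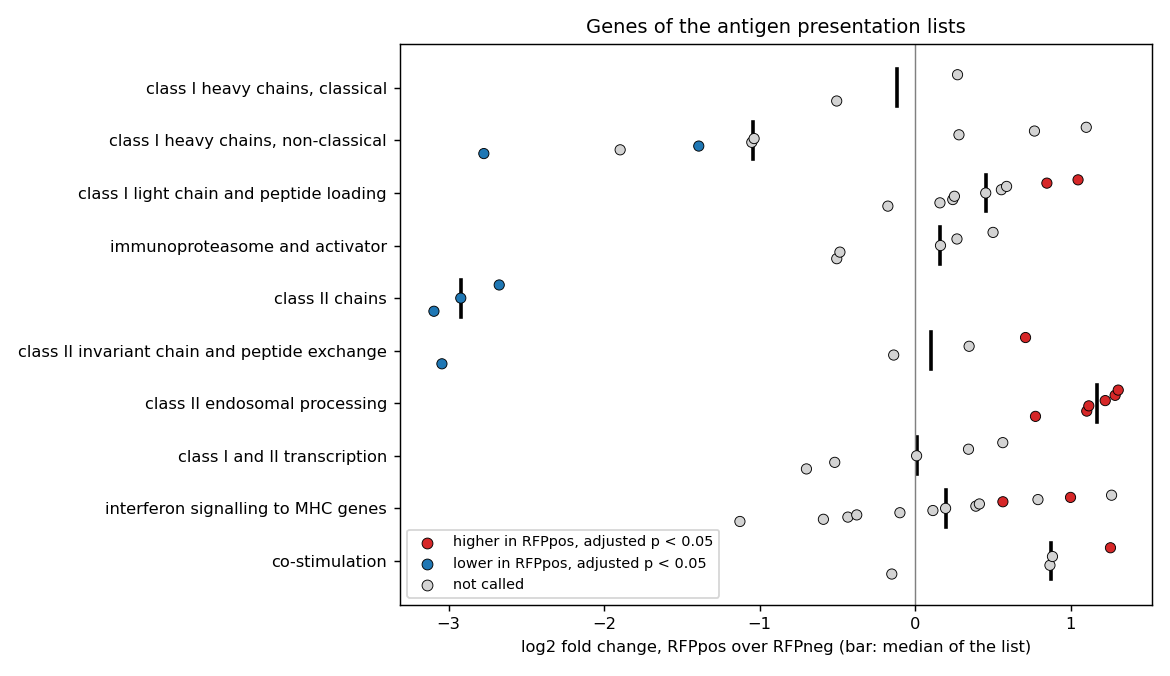
Log2 fold change of RFPpos over RFPneg for every tested gene of 10 antigen presentation lists (points, coloured by call), with the median of each list as a black bar. All 3 class II chains lie below −2 and all 6 endosomal processing genes above 0.

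The endosomal genes that prepare class II peptides moved opposite to the class II chains. All 6 were higher in RFPpos (median 1.17), beside 4.98% of all genes. Ctss, the cathepsin that trims Cd74, had 4873, 3788, 3678, 3489 and 4374 CPM in RFPneg and 10922, 11054, 9752, 9931 and 8161 CPM in RFPpos, without overlap (log2FC 1.31, adjusted p = 1.936e-08). Ctsd (1.22), Ifi30 (1.29), Ctsb (1.12), Ctsl (1.103) and Lgmn (0.77) followed. Relative to the microglia genes none of the 6 was called, with log2FC values from −0.35 for Lgmn to 0.19 for Ctss. On that scale 51.2% of all genes were called.

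Among 9 transcription factors of MHC genes, 5 had enough counts and none was called (median 0.01). Ciita, the coactivator of class II transcription, had 1 count in RFPneg and 0 in RFPpos, and Nlrc5, its class I counterpart, had 14 and 5 counts, so that neither was tested. Of 14 genes of interferon signalling to MHC genes, 13 were tested and 2 were higher (median 0.20), beside 4.98% of all genes. Irf8, a factor of myeloid cells, had a log2FC of 1.00 (adjusted p = 0.0002215). Ifngr1 had 0.56 (adjusted p = 0.04967), and was not called in 7 of 10 other settings (adjusted p up to 0.184 with DESeq2), was called lower in 1, with microglia scaling (adjusted p = 0.02579), and was not called in 4 of the 5 fits that left out a mouse. Of 6 co-stimulation genes, 4 were tested and Cd86, the ligand of CD28, was higher (54.3 ± 19.4 against 128 ± 30.1 CPM, SD, n = 5, log2FC 1.26, adjusted p = 0.001731). Relative to the microglia genes no gene of these 3 lists was higher, beside 0.146% of all genes. Lower on that scale, beside 51.0% of all genes, were 3 of 5 tested transcription factor genes (median −1.11) and 10 of 13 interferon genes (median −0.94). Of 4 co-stimulation genes, 1 was lower (median −0.20). Irf8 and Cd86 were at −0.12 and 0.13 on that scale and not called. Without the microglia scaling, 13.5% of all tested genes were called (4.98% higher and 8.52% lower), with a median log2FC of −0.11.

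Markers of other cell types were counted in the same samples, where 8.52% of all genes were called lower and 4.98% higher. All 7 tested monocyte markers were lower in RFPpos, and the 9 listed summed to 320.4, 414, 415, 247 and 278 CPM in RFPneg and 15.0, 21.4, 48.0, 7.99 and 12.5 CPM in RFPpos. The groups lay far apart, with a 16.0-fold lower mean, beside a 7.48-fold lower mean for the class II chains with Cd74. Ccr2 was the most abundant (114 and 11 counts), and Ly6c2, Chil3, Ace and Treml4 had 0 counts in RFPpos.

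Cells known to make class II molecules gave mixed values. Of 10 B cell markers, 4 were tested and 2 were lower. Igkc had 416 counts in RFPneg and 2 in RFPpos and Ebf1, which other cells express too, 297 and 4, whereas Ighm, the most abundant, had 291 and 254, and Cd79a and Pax5 had 0 in RFPpos. The B cell sum was 3.24-fold lower, from 1073 counts in RFPneg and 289 in RFPpos. Ighm gave 291 and 254 of these, so that the RFPpos sum was mostly Ighm. Dendritic cell markers were scarce, with 4 of 11 tested, none called, a median log2FC of −0.93 and a sum of 67.8 ± 33.8 CPM in RFPneg and 38.8 ± 11.9 CPM in RFPpos (SD, n = 5). Itgax led this list (16 and 25 counts) and was its only tested gene above 0, whereas Zbtb46 had 24 and 1 counts (not called, adjusted p = 0.05574) and Cd209a 21 and 4. On the microglia scale 2 of the 4 were lower, beside 51.0% of all genes. Flt3, Clec9a, Ccr7 and Ccl17 had 0 counts in RFPpos, and Ccl22 had 0 counts in both populations. Of 9 markers of CNS-associated macrophages, 7 were tested and none was called, with Mrc1 the most abundant, a median log2FC of 0.21 and sums of 234 ± 8.68 CPM in RFPneg and 264 ± 77.0 CPM in RFPpos (SD, n = 5). The genes of this list differed in direction, with log2FC values from −1.46 for F13a1 (adjusted p = 0.08099, lower in 5 of 5 mice) to 1.49 for Cd163 (adjusted p = 0.3326). Relative to the microglia genes 2 of the 7, F13a1 and Ms4a7, were lower, beside 51.0% of all genes.

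T and NK cell markers were lower in 3 of 4 tested, led by Trbc2, and 11 of the 13 listed had 0 counts in RFPpos (all but Trac and Cd4), among them Ncr1 with 0 counts in RFPneg too. The list summed to 179.9, 68.2, 182, 178 and 169 CPM in RFPneg and 0, 17.8, 0, 11.98 and 0 CPM in RFPpos. The RFPpos values rest on 8 counts in 2 samples, against 221 counts in RFPneg. Neutrophil markers were lower in 7 of 7 tested, led by S100a8, with Ltf and Cxcr2 at 0 in RFPpos. They summed to 2563, 2658, 7140.2, 4389 and 2253 CPM in RFPneg and 55.0, 128, 188, 0 and 0 CPM in RFPpos. Mice 4 and 5 thus had 0 counts of the whole list in RFPpos, and mouse 3 had the most in both populations. Red blood cell genes were lower in 4 of 4 tested, with Hbb-bs the most abundant and Alas2 at 0 in RFPpos. Their sums were 1152, 876, 1441, 1949 and 369 CPM in RFPneg and 129.9, 14.2, 0, 59.9 and 91.7 CPM in RFPpos, without overlap.

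Endothelial markers were lower in 12 of 12 tested, with sums of 145, 210.0, 309.9, 463 and 317 CPM in RFPpos against 2147 CPM or more in RFPneg. Flt1 was the most abundant, and the mean of the summed markers was 21.1-fold lower in RFPpos. Mural cell and fibroblast markers were lower in 5 of 7 tested (4.48-fold in sum, Vtn the most abundant, Kcnj8, Lum and Pdgfra at 0 in RFPpos). Oligodendrocyte markers were lower in 8 of 8 (7.22-fold in sum, led by Mbp). Choroid plexus and ependyma markers were lower in 1 of 3 tested, with Ttr making up 97.5% of counts and Tmem212 and Ccdc153 at 0 in RFPpos. They summed to 5132, 2887, 896, 1767 and 923 CPM in RFPneg and 389.7, 178, 423, 1621 and 442 CPM in RFPpos, where mouse 4 stood above the rest and the groups overlapped. Astrocyte markers were lower in 2 of 8 tested, led by Slc1a2. They summed to 3445, 4806, 4408, 3429 and 3724 CPM in RFPneg and 989, 2755, 4977, 5103 and 4266 CPM in RFPpos. The RFPpos sum was the higher in mice 3, 4 and 5 and the lower in mice 1 and 2, and mouse 1 stood below the rest. Relative to the microglia genes 7 of 8 astrocyte markers (median −1.55) and 3 of 3 choroid plexus and ependyma markers were lower, beside 51.0% of all genes. The part of any of these cells in the class II difference was not tested.

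**Figure D5:**
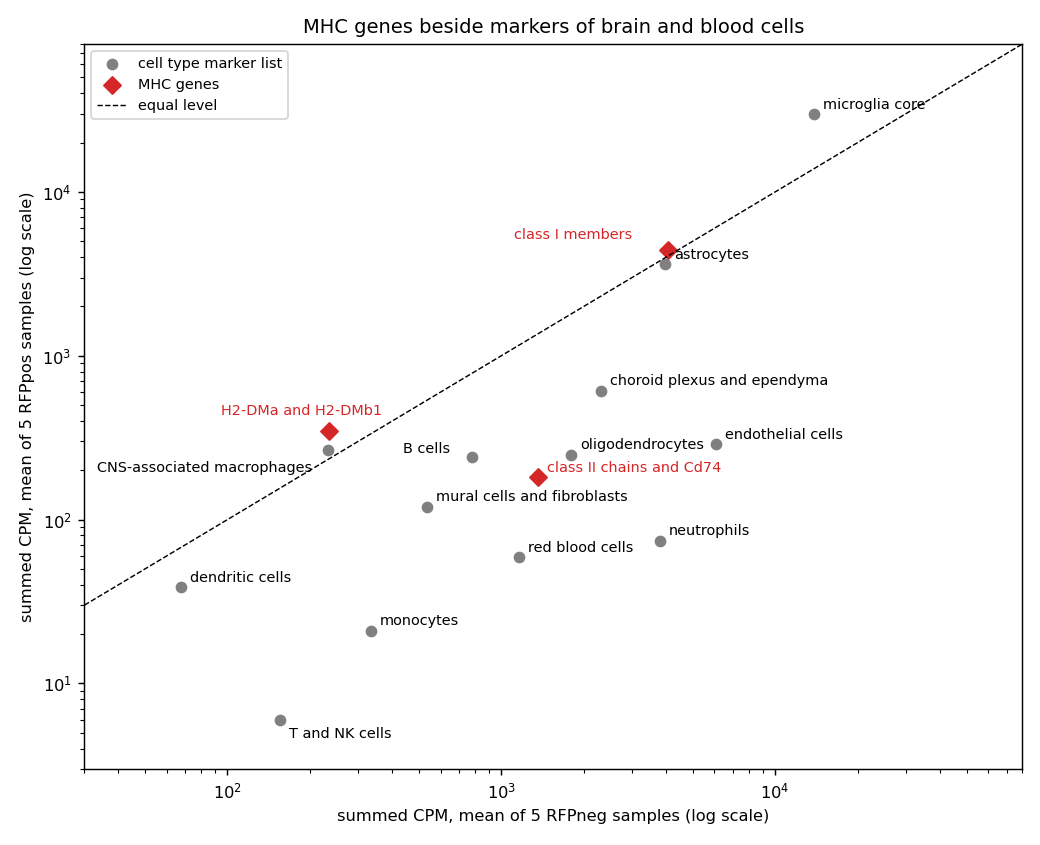
Mean summed CPM of 13 cell type marker lists (grey) and of MHC gene sums (red) in the 5 RFPneg samples (horizontal) and the 5 RFPpos samples (vertical), both on log scales, with a dashed line at equal levels. The class II chains with Cd74 lie below the line, as 11 of the 13 lists do, and the class I genes and H2-DMa with H2-DMb1 lie slightly above it.

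Genes with the most similar pattern were sought over the 10 samples among 4357 genes with at least 100 counts, as a description. Most like the class II sum were Ccl5 (Pearson r = 0.99), H2-Q7 (0.98), Pllp (0.98), Slco1c1 (0.97) and Palmd (0.97), all lower in RFPpos. Ccl5 is a chemokine of T and NK cells, and Slco1c1 a transporter of brain endothelium. Most like the class I sum were Ssbp4 (r = 0.93), Stk40 (0.90), Nudt16 (0.90), Brip1os (0.88) and Zbtb38 (0.85), none of which was called. The class II values follow the separation of the populations, and the samples share mouse and depth.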

How the data were processed

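Viable brain cells of each of 5 mice were sorted into RFPneg and RFPpos samples and sequenced with QuantSeq 3′ FWD libraries by the authors, who processed the reads with Lexogen's pipeline for unique molecular identifiers. The deposited values are raw counts per Ensembl gene for each sample, not normalized. The labels list a GRCm38 build (mm10) for all samples, bulk and single-cell, without the step it served, and the aligner, annotation and counting strand of the bulk data are not given in the sources used here. The single-cell samples were not analysed here. Reads on no gene (34.9% ± 2.24 in RFPneg and 41.5% ± 4.27 in RFPpos, SD, n = 5) and ambiguous reads (0.396% and 0.330%) were left out of library sizes. Symbols were found for 47224 of 47643 identifiers in GENCODE M21, which gave the coordinates.

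Genes with at least 20 counts over the 10 samples were tested with edgeR 4.0.16 in R 4.3.3 (TMM scaling, quasi-likelihood test, mouse as a block, Benjamini-Hochberg adjustment), and called at an adjusted p under 0.05. The test was also tried on simulated counts without a mouse effect, and no result here rests on that trial. Standard errors were taken from the F statistic. The fit was repeated with library sizes set to the summed counts of 20 microglia genes. Pairs come from the mouse numbers of the labels, and same-mouse samples, each centred on its population, correlated at 0.28, −0.02, 0.24, 0.04 and 0.01. Ratios of summed counts and gene lists were described without a test. Intervals and the limit of 3 counts cover counting error and the spread of samples only.

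The 9 genes and the lists were chosen with earlier results of these data known. Named are the 9 genes, in the other antigen presentation lists every called gene (of more than 6, the 3 with the smallest p in each direction) and 9 further genes (Ciita, Nlrc5, Tap2, Tapbp, Psmb8, Psmb9, H2-DMb1, H2-Oa and Ctss), in cell type lists the most abundant gene and those at 0 counts, and the 5 genes most like each class sum. Others were named after their values were seen. The alternatives were median-of-ratios factors, library size alone, scaling to the microglia genes, edgeR's filterByExpr, no filter, DESeq2 1.42.0, edgeR's likelihood ratio test, limma 3.58.1 voom, no mouse block, counts thinned to the smallest library, other call thresholds and each mouse left out.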

Additional observations from a re-analysis of the deposited data

Results flagged for a closer look

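In 66 groups of 5 values (the 9 genes, the gene lists and the class ratio in each population), 3 had a sample far from the other 4. Chance gives about 1 in 20 groups. No MHC gene and no class ratio was among them. The T and NK cell sum of the RFPneg sample of mouse 2 was 68.2 CPM, with the other RFPneg samples between 169 and 182 CPM. The sum of CNS-associated macrophage markers in the RFPpos sample of mouse 2 was 399 CPM, with the others between 208 and 254 CPM. The choroid plexus and ependyma sum in the RFPpos sample of mouse 4 was 1621 CPM, with the others between 178 and 442 CPM.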

How the results depend on the processing

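H2-Aa, H2-Ab1, H2-Eb1 and Cd74 kept their direction and their call under all 15 alternatives. The scaling to microglia genes, which lowered the median of all genes by 1.099 and so turns most genes between 0 and that value, turned the log2 fold change of H2-D1 (−0.85), B2m (−0.88), Tap1 (−0.56), H2-DMa (−0.40), Calr (−0.27), Canx (−0.068), Ctsl (−0.015), Ctsb (−0.0025), Lgmn (−0.35), Ifngr1 (−0.55), Irf8 (−0.12), Tapbp (−0.95), Psmb8 (−0.83) and H2-DMb1 (−0.77) negative, and called H2-K1 (−1.62). H2-K1 was also called with median-of-ratios factors (−0.55), library size alone (−0.57), filterByExpr (−0.58) and limma voom (−0.51). H2-DMa was not called with library size alone (0.64), no filter (0.71), DESeq2 (0.67) or thinned counts (0.70), and lay between 0.61 and 0.85 with a mouse left out. H2-Q4 was not called with DESeq2 (−1.43), thinned counts (−1.24) or without mouse 2, 3 or 4. Neither H2-Q4 nor H2-Q7 passed filterByExpr. Tap2, never called outside the microglia scaling, was positive with thinned counts (0.095) and lay between −0.73 and 0.29 with a mouse left out (0.072 without mouse 2, 0.29 without mouse 3). The cause was not tested.

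The number of genes called was 1385, and 5246 with microglia scaling (15 higher and 5231 lower), 916 of 4210 genes with filterByExpr, 913 with DESeq2, 1397 without the mouse block and 972 to 1212 without a mouse. Leaving out the block changed no call of the 9 genes or of the 18 other antigen presentation genes refitted. The log2 difference of the class ratio, 2.02, was 1.24 without B2m and H2-Aa, 3.18 without H2-DMa, 1.79 over the whole lists, and 1.83 to 2.12 without a mouse.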
